A study of Mus musculus with 14 samples.

Results

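Transcripts of 10 bulge stem cell identity factors were followed in sorted mouse cells: Cd34, Lgr5, Sox9, Lhx2, Nfatc1, Tcf7l1, Tbx1, Foxc1, Trp63 and Fst. The members are a list of names matched by gene symbol, and all 10 had a row among the 24537 genes of each expression table. The main comparison was in hair follicle stem cells (HFSC), sorted as CD34-positive cells with high integrin alpha 6 on day 4 after hair depilation, with 3 libraries labelled GR WT and 3 labelled GR KO. The GR KO mice carry a Cre fused to YFP under Foxp3 control and a floxed glucocorticoid receptor gene (Foxp3YFP-Cre GRfl/fl), so the deletion is directed at Foxp3-expressing regulatory T (Treg) cells and not at HFSC. Skin Treg cells, taken 24 h after depilation from mice of the same 2 genotypes (3 GR WT and 5 GR KO libraries), served as a check on how far follicle transcripts reach into a sort of another cell type. All 14 libraries came from depilated skin, and no undepilated group was analysed here. Neither the age of the mice nor the alleles of the WT mice are given in the labels, and whether replicates are separate mice is not stated. The p-values thus reflect only the scatter among these libraries, part of which may be technical.

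The bulge is the niche of the resting hair follicle in which its stem cells are kept until a new growth phase. A network of transcription factors holds these cells in their state: Sox9, Lhx2 and Tbx1 maintain the stem cell pool, Nfatc1 and Foxc1 favour quiescence, Tcf7l1 acts mainly as a repressor of Wnt target genes, and Trp63 encodes p63, the master regulator of stratified epithelia. Cd34 encodes the surface sialomucin by which mouse bulge cells are sorted, Lgr5 encodes a receptor for R-spondins that marks the lower bulge and hair germ, and Fst encodes follistatin, a secreted antagonist of activins and some BMPs. In bulk samples a lower transcript level in every cell and a smaller share of cells with the transcript cannot be told apart.

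All 10 transcripts were abundant in HFSC, read in TPM, a level scaled to library size and transcript length. Tbx1 was the highest in GR WT at 419 ± 8.29 TPM (SD, n = 3), and Tcf7l1 was the lowest member at 41.1 ± 5.58 TPM. By their means over all 6 HFSC libraries they lay above 98.3% and 71.6% of the 12493 tested genes (those averaging 1 TPM or more). Between them, in falling order of the GR WT mean, came Lhx2, Trp63, Sox9, Cd34, Nfatc1, Lgr5, Fst and Foxc1. The GR WT libraries of Lhx2 and Trp63 overlapped, as did those of Nfatc1 and Lgr5 and those of Lgr5 and Fst, and the other neighbours in this order were apart in all 3 libraries. In GR KO the order began with Trp63 (307 ± 34.0 TPM), Tbx1 and Lhx2, whose libraries overlapped. Every member had a mean of more than 30 TPM in both groups, against a floor of 0.131 to 0.581 TPM that 3 sequenced tags allow for these transcripts.

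Markers of T cells and endothelium were nearly absent from the HFSC libraries, and those of other epithelial compartments were present. The summed level of 8 T cell genes was 1.16 to 4.45 TPM in GR WT and 1.35 to 3.09 TPM in GR KO, with no gene tested because none reached a mean of 1 TPM. The 6 endothelial genes together reached at most 0.902 TPM in GR WT and 1.28 TPM in GR KO, with Cdh5, Emcn and Flt1 at 0 in every library. Fibroblast genes summed to 4.16 to 15.4 TPM and 5.41 to 12.01 TPM. The 8 basal keratinocyte genes summed to 19210 to 24180 TPM in GR WT and 14800 to 18170 TPM in GR KO. This sum marks basal keratinocytes and does not tell bulge cells from others of that kind. Suprabasal genes summed to 88.7 to 221 TPM in GR WT and 99.9 to 169 TPM in GR KO. The 7 sebocyte genes summed to 2015 to 3214 TPM in GR WT and 4472 to 5438 TPM in GR KO. Most of this sum was Scd1, with a mean of 2451 TPM in GR WT and 4502 TPM in GR KO. GR WT replicate 1, the shallowest HFSC library with 4503905 tags against 6275301 to 7989730 in the others, stood apart on the first principal component (59.8 against -17.7 to -4).

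**Figure D1:**
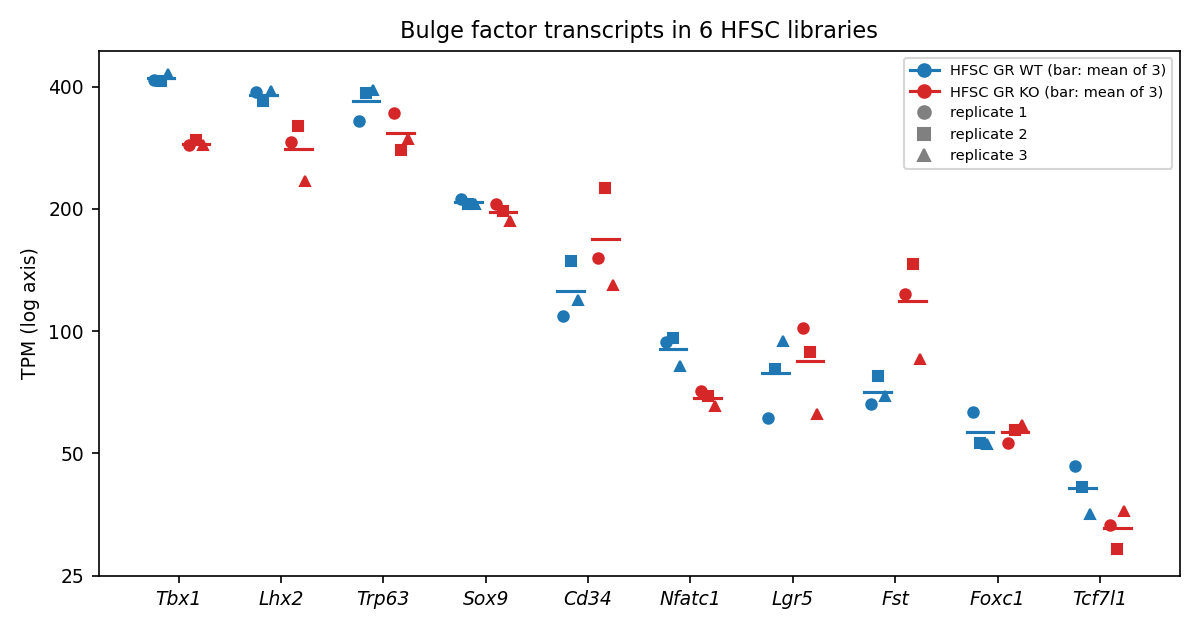
Level of each bulge factor in every HFSC library, in TPM on a log axis; blue points are GR WT, red points GR KO, the marker shape gives the replicate and the horizontal bar is the mean of 3. The GR WT and GR KO libraries are apart for Tbx1, Lhx2, Nfatc1 and Fst and overlap for the other 6 genes.

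No member passed the test between GR KO and GR WT in HFSC (limma, adjusted p over all 12493 genes, threshold 0.05). Over all genes 22 passed, or 0.176%, and 0 to 5 with any single library left out. Unadjusted, 4 members and 2074 genes (16.6%) had a p under 0.05. Limma's voom method, run on the recovered tags, called 483 genes (3.87%), among them 4 members: Tbx1, Lhx2 and Nfatc1 lower and Fst higher. The same 4 were the members whose groups did not overlap. The 3 that lay lower in every GR KO library compare with 12.8% of all tested genes, and the single one that lay higher with 10.7%. The median log2 change over the 10 members was -0.17, beside -0.02 over all genes tested. Without GR WT replicate 1, the library that stood apart, the log2 differences of Tbx1, Lhx2, Nfatc1 and Fst were -0.54, -0.44, -0.37 and 0.65, and again no member passed limma. Centring on basal keratinocyte genes, which moves the median of all genes to 0.18, gave Tbx1 -0.33, Lhx2 -0.25, Nfatc1 -0.19 and Fst 0.90 (adjusted p = 0.192, 0.307, 0.456 and 0.0298). With this centring the estimates of Tcf7l1 and Trp63 were -0.11 and -0.06, and that of Cd34 was 0.60.

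Tbx1, a T-box factor gene (chr16:18581704-18586969, minus strand, mm10), had the smallest p of the members. It was at 287, 295 and 287 TPM in GR KO replicates 1 to 3 and at 415, 413 and 428 TPM in GR WT replicates 1 to 3. All GR KO libraries lay below all GR WT libraries, by more than 100 TPM. The GR KO mean of 289.6 ± 4.38 TPM was 69.1% of the GR WT mean of 419 ± 8.29 TPM (SD, n = 3 each). On the log2(TPM + 1) scale the difference was -0.53 (SE 0.08, 95% interval -0.72 to -0.34, limma adjusted p = 0.0565), the p ranked 38 among the 12493 genes. The adjusted p missed the threshold narrowly and passed it in 4 of 17 other settings, with a range of 0.00914 to 0.25, while the difference itself stayed between -0.59 and -0.33. Replicates agreed closely: the coefficient of variation was 1.51% in GR KO and 1.98% in GR WT, where the median gene of 30 to 500 TPM had 8.31% and 12.1%. A small spread favours a small p, by which Tbx1 was picked out, so this closeness is not a separate result.

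Lhx2, a LIM homeobox gene (chr2:38351308-38369737, plus strand), was at 291, 319 and 234 TPM in GR KO and at 388, 368 and 390.2 TPM in GR WT. The groups did not overlap, and GR KO replicate 3 was the lowest library. The GR KO mean was 282 ± 43.3 TPM, which is 73.7% of the GR WT mean of 382 ± 11.8 TPM. GR KO and GR WT differed by -0.45 on the log2 scale (SE 0.12, 95% interval -0.74 to -0.17, limma adjusted p = 0.144). Its adjusted p passed with voom alone (0.0318) among 17 other settings.

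The sequences before the start sites of these genes are shown because Tbx1 and Lhx2 had the smallest p among members with an entry in the RefSeq promoter table (GRCm38.p6), and Cd34 because it is the antigen of the sort. Entries were found for 5 of the 10 members. Each run gives the 250 bases before the start on the gene's own strand, 5′ to 3′, with matches to the searched motifs in capitals. The start of the authors' Tbx1 row has no entry, and the nearest one lies 1930 bases away.
Tbx1, chr16:18588900-18589149, minus strand: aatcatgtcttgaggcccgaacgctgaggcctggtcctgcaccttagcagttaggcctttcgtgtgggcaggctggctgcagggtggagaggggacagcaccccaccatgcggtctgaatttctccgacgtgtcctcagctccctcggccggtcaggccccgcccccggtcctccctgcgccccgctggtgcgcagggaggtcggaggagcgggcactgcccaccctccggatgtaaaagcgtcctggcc
Lhx2, chr2:38351058-38351307, plus strand: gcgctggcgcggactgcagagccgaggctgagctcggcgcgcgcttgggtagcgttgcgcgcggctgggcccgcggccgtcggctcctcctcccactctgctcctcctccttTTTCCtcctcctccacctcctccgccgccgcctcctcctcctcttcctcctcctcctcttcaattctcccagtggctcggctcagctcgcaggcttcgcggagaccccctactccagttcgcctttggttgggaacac
Cd34, chr1:194938571-194938820, plus strand: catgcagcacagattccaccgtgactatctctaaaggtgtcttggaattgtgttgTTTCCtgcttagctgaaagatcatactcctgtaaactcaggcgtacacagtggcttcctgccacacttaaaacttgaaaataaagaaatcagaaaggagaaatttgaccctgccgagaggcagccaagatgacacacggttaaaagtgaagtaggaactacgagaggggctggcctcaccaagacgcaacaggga

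The Tbx1 and Lhx2 sequences held 67.2% and 68.4% G and C and 17 and 24 CpG pairs, and that of Cd34 held 46.4% and 6 pairs. Over the 32817 promoters of the table the medians were 52.4% and 6 pairs. Both strands were searched for TAATTA (LIM homeobox), CTTTGA (TCF/LEF), ATTGTT (SOX), TGTTTAC (forkhead), GGAAA (NFAT) and TCACACC (T-box). None of these motifs occurred in the Tbx1 sequence. Lhx2 and Cd34 each held GGAAA on the opposite strand, beginning 138 and 195 bases before the start, a motif present in 55.6% of all promoters. The other motifs, found in 4.85%, 13.8%, 9.42%, 3.16% and 3.33% of promoters in the order given without GGAAA, were not in these windows. A match describes letters only and says nothing of binding.

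Nfatc1 (chr18:80647435-80708173, minus strand) encodes a calcineurin-regulated factor that restrains the bulge cell cycle. It was at 71.0, 69.1 and 65.3 TPM in GR KO and at 93.8, 96.1 and 81.8 TPM in GR WT. Every GR KO library lay below every GR WT library. The means of 68.5 ± 2.91 and 90.6 ± 7.66 TPM differed by -0.40 on the log2 scale (SE 0.11, 95% interval -0.64 to -0.15, limma adjusted p = 0.136). The adjusted p passed with voom (0.0388) and with array weights (0.0381).

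Fst (chr13:114452262-114458951, minus strand) differed in the other direction. It was at 124, 146 and 85.3 TPM in GR KO and at 66.3, 77.3 and 69.4 TPM in GR WT. The groups did not overlap, although GR KO replicate 3 came within 10 TPM of GR WT replicate 2. The GR KO mean of 118 ± 30.9 TPM was 1.67 times the GR WT mean of 71.0 ± 5.68 TPM. The log2 difference was 0.70 (SE 0.19, 95% interval 0.27 to 1.13, limma adjusted p = 0.136), the largest in size among the members, and 0.53 without GR KO replicate 2. The adjusted p passed with voom (0.045) and after centring on basal keratinocyte genes (0.0298). Within each library the ratio of Fst to Tbx1 was 0.43, 0.497 and 0.297 in GR KO and 0.16, 0.187 and 0.162 in GR WT. This measure was chosen after the values were seen. Fst lay higher and Tbx1 lower in every GR KO library, so the ratio had to be apart and is not a separate result.

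Cd34, the sort antigen (chr1:194938821-194961292, plus strand), was at 152, 225 and 130.2 TPM in GR KO and at 109, 149 and 119 TPM in GR WT. The groups overlapped, and GR KO replicate 2 stood highest. The means were 169 ± 49.6 and 126 ± 20.7 TPM, a log2 difference of 0.40 (SE 0.20, 95% interval -0.07 to 0.87, limma adjusted p = 0.376). That difference was 0.17 without GR KO replicate 2. The ratio of Cd34 to Lhx2 within a library was 0.521, 0.704 and 0.556 in GR KO and 0.281, 0.404 and 0.306 in GR WT, without overlap, a measure chosen after the values were seen.

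Lgr5 (chr10:115450314-115587780, minus strand) was at 102, 88.7 and 62.7 TPM in GR KO and at 61.2, 80.9 and 94.4 TPM in GR WT. The ranges covered each other almost fully. The estimate on the log2 scale was 0.09 (SE 0.21, 95% interval -0.39 to 0.57, limma adjusted p = 0.865), and its sign turned without GR KO replicate 1 (-0.06) or GR WT replicate 1 (-0.08). The interval leaves room for a change of either sign, so the data do not show that Lgr5 was alike in the groups.

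Tcf7l1 (chr6:72626371-72789045, minus strand) was at 33.4, 29.1 and 36.0 TPM in GR KO and at 46.7, 41.3 and 35.5 TPM in GR WT. GR KO replicate 3 lay just above GR WT replicate 3, and the other GR KO libraries lay below all GR WT libraries. Its log2 difference was -0.31 (SE 0.14, 95% interval -0.64 to 0.01, limma adjusted p = 0.322). Trp63 (chr16:25801916-25892088, plus strand), whose single row does not separate isoforms from its alternative starts, was at 345, 279 and 298 TPM in GR KO and at 328, 386 and 393 TPM in GR WT. GR KO replicate 1 lay above GR WT replicate 1, so the groups overlapped. Its log2 difference was -0.26 (SE 0.12, 95% interval -0.53 to 0.01, limma adjusted p = 0.312).

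Sox9 (chr11:112782210-112787757, plus strand) was at 206, 197 and 187 TPM in GR KO and at 212, 206 and 206 TPM in GR WT. The highest GR KO library lay just above the lowest GR WT libraries. Its log2 difference was -0.08 (SE 0.09, 95% interval -0.28 to 0.12, limma adjusted p = 0.688), an interval that excludes a change as large as the estimate for Tbx1. Foxc1 (chr13:31806646-31810635, plus strand) was at 53.1, 57.2 and 58.7 TPM in GR KO and at 63.3, 53.1 and 52.8 TPM in GR WT. Its log2 difference was 0.00 (SE 0.12, 95% interval -0.26 to 0.27, limma adjusted p = 0.997), and its sign turned in 5 of 17 other settings.

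By role, 6 of the 7 transcription factor genes had an estimate below 0 and all 3 surface or secreted genes had one above 0 (medians -0.31 and 0.40). The median over all tested genes was -0.02, and their share below 0 was not counted. The split by role was not among the planned comparisons and only describes these 10 estimates. Lgr5 and Foxc1 are in this count with estimates close to 0, and centring on basal keratinocyte genes turned Sox9 to 0.12. The surface and secreted genes also varied most between GR KO libraries. Their coefficients of variation were 29.3% for Cd34, 26.1% for Fst and 23.5% for Lgr5, each above that of more than 95% of genes of 30 to 500 TPM. GR KO replicate 3 was the lowest GR KO library for 7 of the 10 members and had the lowest summed basal keratinocyte level (14800 TPM), the highest summed sebocyte level (5438 TPM) and the lowest summed cell cycle level (633 TPM). The part of these differences in the members' levels was not tested.

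**Figure D2:**
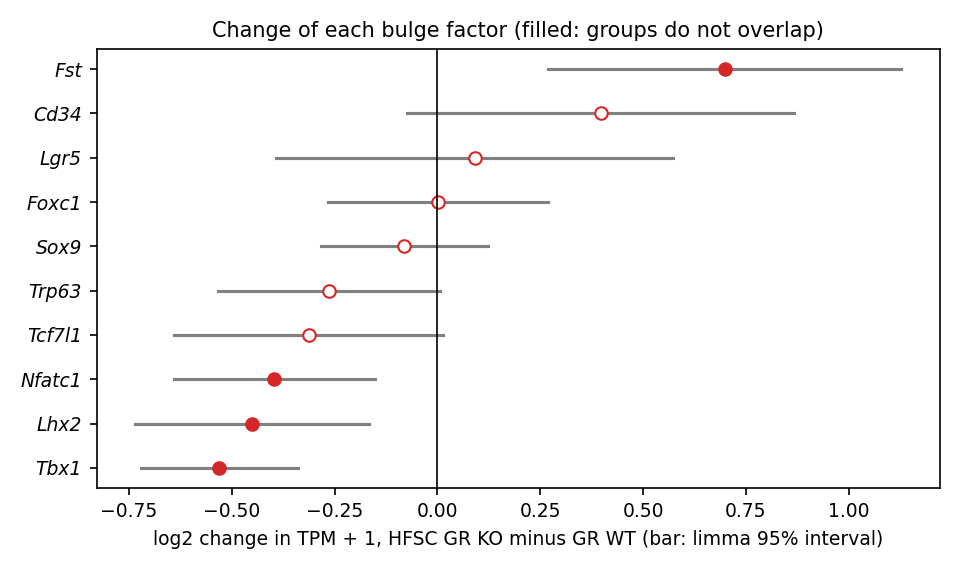
Difference of each bulge factor between HFSC GR KO and GR WT on the log2(TPM + 1) scale, ordered by size; the bar is limma's 95% interval and filled points mark genes whose libraries do not overlap between groups. The estimates run from -0.53 for Tbx1 to 0.70 for Fst, and the intervals of Tbx1, Lhx2, Nfatc1 and Fst leave out 0 before adjustment over all genes.

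Genes of the pathways around these factors were read from lists. Of 85 distinct tested genes on the 10 pathway lists, 0 passed limma over all genes, 17 had an unadjusted p under 0.05 and voom called 8, all lower, where 16.6% and 3.87% of all genes did so. Among 15 other bulge genes 0 passed limma, 4 had an unadjusted p under 0.05 and voom called 1. Of these genes 12 had estimates below 0, and the median was -0.17, the same as that of the members to the second decimal. Vdr, the vitamin D receptor gene, was at 232 ± 31.9 TPM in GR KO and 311 ± 29.2 TPM in GR WT (log2 -0.43, limma adjusted p = 0.162). Gas1 and the Wnt inhibitor gene Sfrp1 were also lower in every GR KO library (log2 -0.34 and -0.24, adjusted p = 0.253 and 0.251), with Gas1 at -0.22 without GR KO replicate 3. Cd200, another surface antigen of bulge cells, was at 79.5 ± 11.6 and 55.3 ± 15.6 TPM with overlapping groups (log2 0.54, adjusted p = 0.229).

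The relatives of Nfatc1 were spread about 0. Of 9 tested NFAT and calcineurin genes 6 had estimates above 0 and the median was 0.04, with Ppp3r1, the calcineurin regulatory subunit gene, at 72.2 ± 1.71 TPM in GR KO and 53.2 ± 10.6 TPM in GR WT (log2 0.45, limma adjusted p = 0.203), or 0.28 without GR WT replicate 1. None of the 9 passed limma or voom, and 1 had an unadjusted p under 0.05. Among SOX relatives of Sox9, 5 of 14 were tested and 0 passed limma. Sox4 was at 33.6 ± 5.21 and 55.9 ± 1.79 TPM (log2 -0.73, adjusted p = 0.0697) and Sox13 at 53.7 ± 11.99 and 93.3 ± 21.2 TPM (log2 -0.79, adjusted p = 0.127), both lower in every GR KO library and both called by voom. The 3 tested LIM partners of Lhx2 had estimates close to 0 (median -0.09), and of the T-box and forkhead relatives only Foxi3 and 1 other gene reached a mean of 1 TPM. Foxi3 was lower in every GR KO library, at 7.35 ± 2.73 and 14.4 ± 6.1 TPM (log2 -0.87, limma adjusted p = 0.24), or -0.57 without GR WT replicate 3.

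Signalling genes that meet Fst and Lgr5 were mixed. In the activin list 0 of 10 passed limma, 2 had an unadjusted p under 0.05 and voom called 1. Inhbb, which encodes the activin B subunit that follistatin binds, was at 32.4 ± 3.14 TPM in GR KO and 40.8 ± 0.841 TPM in GR WT (log2 -0.33, adjusted p = 0.227), and the follistatin-like gene Fstl1 at 31.6 ± 2.95 and 44.4 ± 3.27 TPM (log2 -0.48, adjusted p = 0.126), both without overlap and opposite in direction to Fst. In the BMP list 0 of 14 passed limma or voom, 2 had an unadjusted p under 0.05 (Id2 and Bmp4), and 7 estimates lay on either side of 0. Id2, a BMP target gene, was at 160.3 ± 9.81 and 111 ± 14.9 TPM (log2 0.54, adjusted p = 0.104). Bmp4 was lower in every GR KO library, at 0.304 ± 0.143 TPM in GR KO and 1.77 ± 0.94 TPM in GR WT (log2 -1.03). It was tested only through its GR WT level, so its difference is given as a description. Of 6 tested LGR and R-spondin genes and 11 TCF/LEF genes 0 passed limma, and in each list 1 had an unadjusted p under 0.05 and was called by voom. The Wnt co-receptor gene Lrp5 (log2 -0.34, adjusted p = 0.162) and the cyclin gene Ccnd1 (log2 -0.53, adjusted p = 0.223) were lower in every GR KO library, with Ccnd1 at -0.35 without GR WT replicate 3.

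The 12 p63 target and partner genes had a median of -0.14 and 10 estimates below 0, with 0 past limma, 3 at an unadjusted p under 0.05 and 2 called by voom. Krt5, the basal keratin gene, was at 6895 ± 834 and 9737 ± 798 TPM (log2 -0.50, adjusted p = 0.145), and Trp53 at 99.9 ± 4.63 and 142 ± 22.1 TPM (log2 -0.49, adjusted p = 0.128). Markers of neighbouring follicle compartments stood beside these values. All 7 tested hair germ genes had estimates below 0 (median -0.54, 0 past limma, 3 at an unadjusted p under 0.05, 3 called by voom), among them the P-cadherin gene Cdh3 (72.2 ± 5.36 and 96.9 ± 7.67 TPM, adjusted p = 0.127), Ptch1 and Gli1 (log2 -0.79 and -0.54). All 7 sebocyte genes had estimates above 0 (median 0.68, 0 past limma, 6 at an unadjusted p under 0.05, 2 called by voom), with Elovl3 and Scd1 at log2 0.92 and 0.90 (adjusted p = 0.0798 and 0.0829). The 5 tested upper follicle genes were mixed (median 0.03, 3 estimates above 0 and 2 below, 0 past limma, 2 at an unadjusted p under 0.05). Krt79 was at 1362 ± 143 and 923 ± 61.2 TPM (log2 0.56, adjusted p = 0.0782) and Lrig1 at 128 ± 26.8 and 177 ± 20.7 TPM (log2 -0.48, adjusted p = 0.194), and voom called both. Of 10 cell cycle genes 1 passed limma, lower in GR KO (Ung, 18.2 ± 1.96 against 39.1 ± 3.59 TPM, adjusted p = 0.0413). That call was lost when any of the 6 libraries was left out. All 10 estimates were below 0 (median -0.55), 9 had an unadjusted p under 0.05 and voom called 7, all lower. Of all genes 16.6% and 3.87% did so, in either direction. Whether these shifts in compartment markers contribute to the members' values was not tested.

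**Figure D3:**
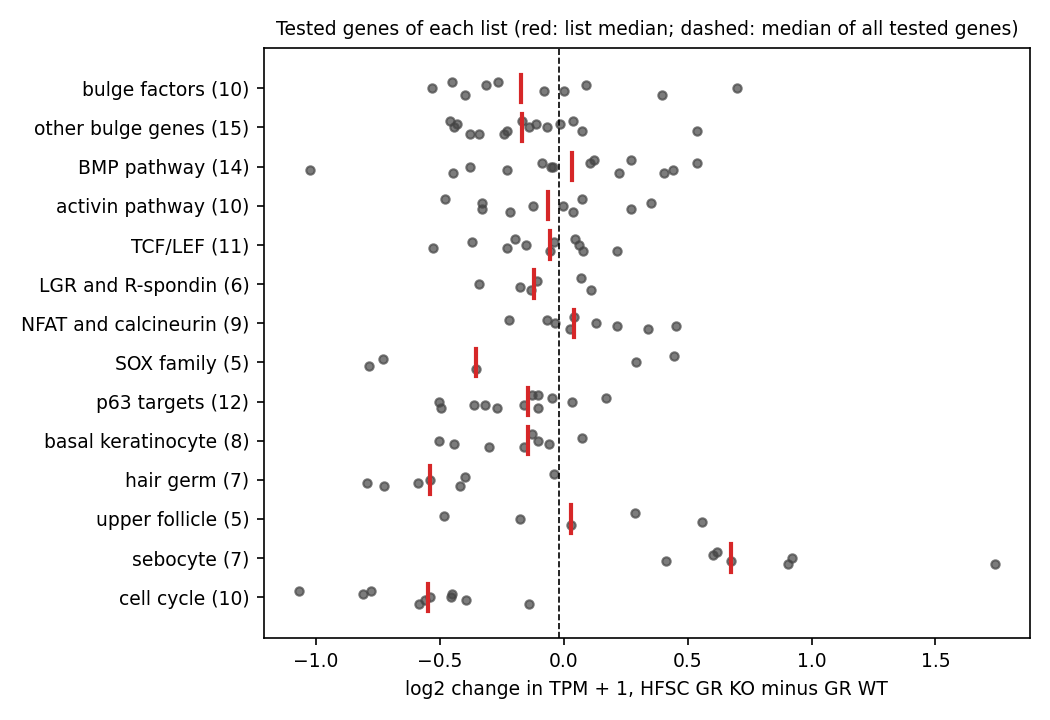
Log2 difference between HFSC GR KO and GR WT for each tested gene (grey point) of the bulge factors and 13 other lists, with the number tested in brackets; red bars are list medians and the dashed line is the median of all tested genes (-0.02). The bulge factors are spread from -0.53 to 0.70 around a median of -0.17, between the sebocyte list (0.68) and the cell cycle and hair germ lists (-0.55 and -0.54).

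The 5 genes whose level followed Tbx1 most closely over the 6 HFSC libraries, among 12492 others, were Mybbp1a (Pearson r of log2 values 0.99), Fbxo25, Eno1b, Eno1 and Cep63. The groups of Tbx1 are fully apart, so r mainly follows the difference between genotypes and is given as a description. None of the 5 passed limma (adjusted p from 0.108 to 0.63), with Mybbp1a at 82.5 ± 1.86 TPM in GR KO and 98.8 ± 1.35 TPM in GR WT. Eno1b is a near copy of the enolase gene Eno1, and reads may be split between them.

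In Treg cells the members ranged from Nfatc1, the highest in every library, to 6 members with a mean below 1 TPM. Nfatc1, which T cells also use downstream of the antigen receptor, was at 18.5, 23.1, 26.4, 29.4 and 26.1 TPM in GR KO and at 22.4, 32.0 and 39.0 TPM in GR WT. The groups overlapped, with a log2 difference of -0.30 (SE 0.19, 95% interval -0.72 to 0.12, limma adjusted p = 0.516), or -0.51 and -0.13 without GR WT replicate 1 and 3. Its Treg level was 20.4% to 43.0% of the HFSC GR WT mean. The 8 basal keratinocyte genes read the same way had a median of 1.12% to 2.02% in GR WT and 0.0618% to 0.294% in GR KO libraries. These percentages set levels of separately made tables side by side and are descriptive.

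Cd34 fell in Treg GR KO, where 175 of 11579 tested genes passed limma (1.51%), 152 of them lower (1.31%). Without GR WT replicate 3 or GR WT replicate 1, 84 or 107 genes passed. Cd34 was at 3.17, 0.214, 4.08, 1.40 and 4.95 TPM in GR KO and at 16.0, 11.1 and 12.6 TPM in GR WT. Every GR KO library lay below every GR WT library, as for 5.1% of tested genes. The change on the log2 scale was -2.11 (SE 0.45, 95% interval -3.10 to -1.12, limma adjusted p = 0.0467). The call held in 4 of 18 other settings (adjusted p from 0.00966 to 0.165) and was lost without GR KO replicate 1, 3 or 4 or any GR WT replicate. At 8.80% to 12.7% of the HFSC level in GR WT, Cd34 stood above the keratinocyte median. It lay inside the span of the 8 keratinocyte genes in the same libraries (0.347% to 17.6%), whose top is Itga6. In Treg cells Itga6 was at 14.6 ± 1.52 TPM in GR KO and 16.0 ± 2.42 TPM in GR WT, with overlapping groups. The span therefore does not measure keratinocyte transcripts alone.

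Trp63 was at 0 to 0.244 TPM in the 5 GR KO libraries and at 1.80, 2.48 and 4.45 TPM in GR WT. It entered the test through its GR WT values, with 0 to 12 tags per GR KO library and 60 to 212 per GR WT library. Since that admission itself required a difference, the log2 difference of -1.71 (SE 0.32, limma adjusted p = 0.0211) is given as a description. Without GR WT replicate 3 Trp63 was below 1 TPM on average and not tested, and its adjusted p was above the threshold without GR KO replicate 5 or GR WT replicate 2 (0.0543 and 0.0507). Trp63 stood at 0.489% to 1.21% of its HFSC level in GR WT. This too lies inside the span of the 8 keratinocyte genes.

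Transcripts of other cell types stood beside Cd34 and Trp63 in the Treg libraries. Of 6 tested basal keratinocyte genes 4 fell, Krt15, Krt5, Krt14 and Col17a1, the last tested through its GR WT level, and the summed level of all 8 was 26.4 to 87.7 TPM in GR KO and 306 to 525 TPM in GR WT. Fibroblast genes summed to 21.9 to 106 TPM and 112 to 189.9 TPM, with 0 of 6 past limma, 5 with an unadjusted p under 0.05 and 1 called by voom, where 14.1% and 2.18% of all genes did so. The 6 endothelial genes, a cell type that carries CD34, summed to 14.9 to 19.97 TPM and 18.3 to 37.3 TPM, with 0 of 3 past limma or voom and 1 with an unadjusted p under 0.05. Of 7 macrophage genes 3 fell (Mrc1, Fcgr1 and Lyz2), 6 had an unadjusted p under 0.05 and voom called 5, with all 7 estimates below 0. The part of these cells in the Cd34 and Trp63 differences was not tested.

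Tcf7l1 was the other tested member in Treg cells, at 1.08 ± 0.517 TPM in GR KO (n = 5) and 1.19 ± 0.363 TPM in GR WT (n = 3, SD). Its log2 difference was -0.10 (SE 0.30, limma adjusted p = 0.926), and it turned to 0.13 with quantile scaling and 0.03 without GR WT replicate 3. The remaining 6 members were below a mean of 1 TPM and were not tested. Fst was at 0.095 to 0.892 TPM in GR KO and at 1.51, 1.70 and 2.56 TPM in GR WT, and Lgr5 at 0 to 0.119 and at 0.646, 0.272 and 0.902 TPM. Both were lower in every GR KO library, and Lhx2 was as well (0 to 0.149 and 0.241 to 2.10 TPM). These values rest on few tags, 2 to 20 in GR KO and 28 to 68 in GR WT for Fst, and 0 to 6 and 10 to 44 for Lgr5. How many untested genes were lower in every GR KO library was not counted. Sox9, Tbx1 and Foxc1 overlapped, with at most 2.14, 1.52 and 1.31 TPM in any Treg library. GR WT replicate 3 was the highest Treg library for Nfatc1, Lhx2, Sox9, Tbx1, Trp63, Lgr5 and Fst, and the highest for the keratinocyte median.

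**Figure D4:**
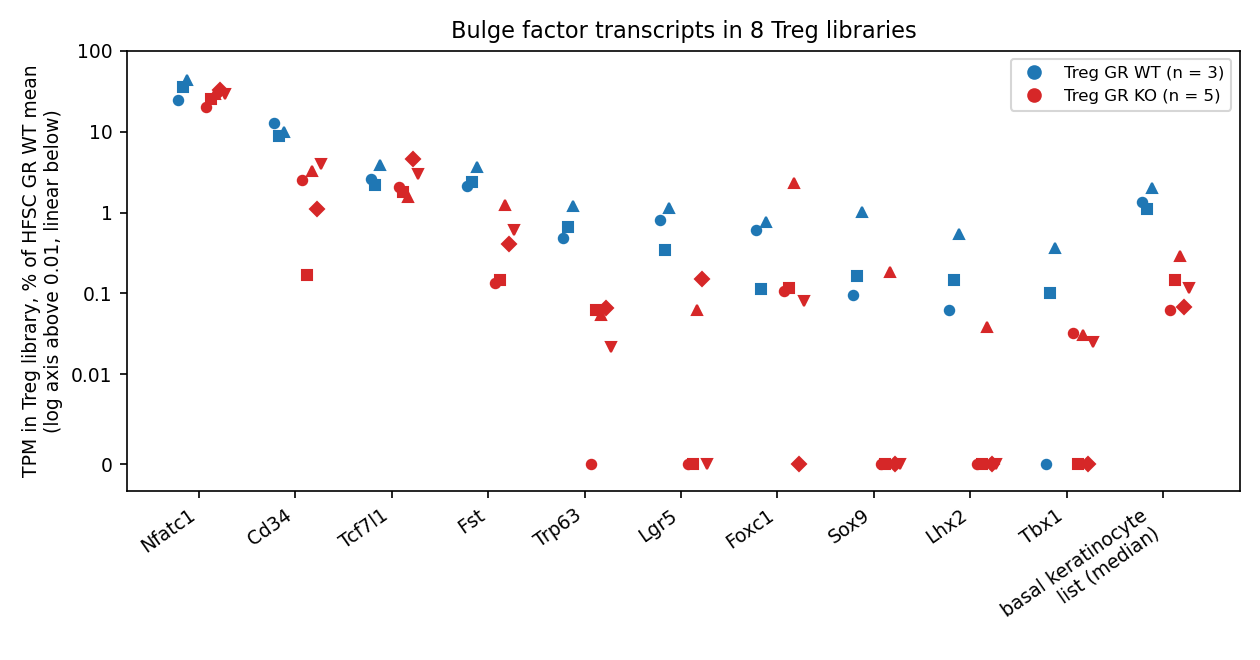
Level of each bulge factor in 8 Treg libraries as a percent of its mean in HFSC GR WT, on an axis that is logarithmic above 0.01 and linear below; blue points are GR WT (n = 3), red points GR KO (n = 5), and the last column is the median of 8 basal keratinocyte genes. Nfatc1 lies at 20.4% to 43.0%, Cd34 at 8.80% to 12.7% in GR WT, and Sox9, Lhx2 and Tbx1 at 0 to 1.03% in all libraries.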

How the data were processed

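Stranded mRNA libraries of 14 sorted samples were sequenced, per the labels' protocols. FastQC, Trim Galore, STAR, HOMER and mm10 appear in the submitters' processing notes. Versions, settings and any use of strand in counting: not given in the sources used here. The authors deposited TPM per gene and sample in 1 table per cell type, with 1 RefSeq transcript and its length per gene, per the file headers. Columns were matched to samples by table, genotype and number.

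Low values multiplied by transcript length fell on whole tags (within 0.1 of a tag) in 100% of cases, which gave 4503905 to 7989730 tags per HFSC and 9167605 to 14461504 per Treg library. Of genes with 1 to 50 tags, 79.3% to 87.3% had an even number, so tags are not independent molecules, and a floor of 3 tags covers counting error alone. Chi-square per degree of freedom between replicates was 2.82 to 17.41, above sampling noise, so none was treated as a copy.

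GR KO was compared with GR WT within each table on log2(TPM + 1) by limma 3.58.1 (R 4.3.3) for genes averaging 1 TPM or more, with a trend in the prior, two-sided, with Benjamini-Hochberg adjustment over all genes and a threshold of 0.05. Fold changes on this scale understate those of low genes. The fit was also run on simulated libraries with independent tags, unlike those here, and no result rests on that run. The members and all gene lists (22 lists, 209 entries, 1 of them with no row) were chosen with earlier results of these data known. Named genes are the members, up to 4 genes per list with the smallest p in HFSC, of these only those with an unadjusted p under 0.05, and the 5 genes most like the member with the smallest p. Other genes (Cdh5, Emcn, Flt1, Krt14, Krt15, Itga6, Col17a1, Mrc1, Fcgr1 and Lyz2 in the marker lists) were named after their values were seen. Alternatives covered the pseudocount, the filter, scaling, voom, the prior, sample weights, a replicate block and each library left out.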

Additional observations from a re-analysis of the deposited data

How the results depend on the processing

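The count of 0 members past the threshold in HFSC was 1 with a filter at 5 TPM, with quantile scaling and with centring on basal keratinocyte genes, 2 with array weights and 4 with voom, and 0 in the other settings, each library left out included. The 22 genes called in HFSC became 2 with no filter on low values, 48 with the filter at 5 TPM, 69 with median ratio scaling, 58 with quantile scaling, 483 with voom, 51 with a robust prior, 584 with array weights and 241 with centring, and ranged from 0 to 5 with a library left out. Centring moved the median of all genes to 0.18 and that of the members from -0.17 to 0.0299. Signs turned for Sox9 with centring (0.12), for Lgr5 without KO replicate 1 or WT replicate 1 (range with a library left out -0.0787 to 0.287), and for Foxc1 with voom (-0.0441) and without replicate 2 or 3 of either group (range -0.0432 to 0.0857). In Treg cells the 175 calls ranged from 84 (without WT replicate 3) to 186 with a library left out, 107 without WT replicate 1. The 2 member calls there became 0 with a pseudocount of 0.1 TPM and with the filter at 5 TPM, where Trp63 is no longer tested, and 1 with no filter, median ratio scaling, quantile scaling, a robust prior and array weights, and ranged from 0 to 2 with a library left out. Tcf7l1 in Treg turned to 0.128 with quantile scaling and 0.0341 without WT replicate 3 (range with a library left out -0.225 to 0.0341). The cause of these changes was not tested. Same-numbered libraries did not deviate together (correlations of 0.016, 0.062 and -0.042 in HFSC and 0.17, 0.087 and -0.117 in Treg), so replicate numbers were not taken as pairs. With a replicate block, HFSC calls numbered 66 with 0 members, and Treg calls 111 with 0 members. Depth limits the Treg values of members at 0 to 12 tags per library.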
